A study of Mus musculus with 6 samples.

Results

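The genes described here are 30 named genes of glycolysis and of the response to low oxygen, followed in hepatic stellate cells of the mouse kept in culture. Stellate cells lie beside the liver sinusoids, store vitamin A and make scar collagen when activated. The genes were taken from a written list, chosen with earlier results of these data known, and 29 of the 30 are rows of the 13341-gene table. The aldolase gene Aldoa was not analysed here. The list holds 16 enzymes that run or steer glycolysis, 2 membrane transporters and 12 genes of the hypoxia response. The study set 3 libraries labelled WT (wild type) against 3 labelled Nbr1KO (Nbr1 knock-out), called biological replicates, and asked how the autophagy receptors NBR1 and p62 act on STING signalling in these cells. All cells of both groups came from liver, received no treatment and grew for 4 days in DMEM with 10% fetal bovine serum, glutamine and antibiotics. The strain, the age of the mice, the way the knock-out was made and whether the cells are primary or a line are not given in the sources used here. Nothing in the labels says that the replicates came from separate animals, so p-values measure the spread between these libraries, which may be technical.

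Glycolysis turns glucose into pyruvate, and lactate dehydrogenase can pass pyruvate on to lactate. Its genes are classic targets of the hypoxia-inducible factor HIF-1, whose alpha subunit (the product of Hif1a) is marked for destruction by oxygen-dependent prolyl hydroxylases, the products of the Egln genes. When oxygen is short the factor persists and binds a short promoter core, the hypoxia response element. In stellate cells, glycolysis is known to increase as the cells turn into collagen-producing myofibroblasts.

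Each library used 200 ng of RNA and a protocol that sequences only transcript 3' ends, so a count does not grow with transcript length. Levels of different genes are compared below as measured counts only, and those of 5 genes with near-identical copies are uncertain. Values are normalized counts, and between 1508518 and 2383879 reads per library stood behind them. Of the 29 genes, 27 had at least 10 normalized counts in at least 3 libraries and were tested, while Pgk1 and Adm were too low. Each was tested with limma across all 10540 such genes of the table, with Benjamini-Hochberg adjustment over all of them, and a gene is said to have risen or fallen only where the adjusted p was under 0.05.

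Facts about the libraries bear on every comparison. Nbr1 itself stood at 204.1, 278.0 and 288.7 normalized counts in the WT libraries 1 to 3 and 203.7, 188.2 and 175.6 in the Nbr1KO libraries 1 to 3 (limma adjusted p = 0.22), and 3' reads do not check a deletion elsewhere in the gene. Sqstm1, which encodes p62, was at 10.9 to 24.0 in the libraries labelled WT and 644.6 to 859.1 in those labelled Nbr1KO, so each direction below rests on the labels. By their deviations from the group means the libraries formed 2 sets, one of WT library 1 with Nbr1KO libraries 1 and 3 (set A) and one of WT libraries 2 and 3 with Nbr1KO library 2 (set B). Of 18 stellate and mesenchymal markers, 13 had a row, and their summed level was 8489.2 to 11379.4 in the WT label and 18589.3 to 22835.7 in the Nbr1KO label. Des, Lrat, Reln, Hgf and Ngfr were not analysed here. Summed markers of hepatocytes (3 of 7 with a row), macrophages (3 of 7) and endothelium (1 of 7) reached at most 32.0, 27.5 and 8.3 in any library. Smooth muscle markers (3 of 4) summed to 3.6 to 9.2 in the WT label and 104.9 to 116.3 in the Nbr1KO label, mesothelial markers (5 of 6) to 1327.5 to 1541.7 against 967.7 to 1081.2, and cholangiocyte markers (4 of 5) to 138.6 to 150.8 against 541.3 to 570.8. The last sum was higher through Sox9 (10.7 to 21.8 against 467.1 to 496.0), while Spp1 (69.7 to 78.7 against 27.5 to 33.2) and Krt19 (47.2 to 50.7 against 31.8 to 37.1) were lower and Krt7 overlapped. Of the mesothelial markers, Msln was higher (9.2 to 17.3 against 19.0 to 26.3), while Gpm6a, the largest (913.9 to 1160.3 against 771.2 to 846.6), Upk3b, Wt1 and Krt8 were lower. Of the stellate and mesenchymal markers, Vim, Cygb and Gfap overlapped, and the others with a row were higher without overlap. The sums for stellate, smooth muscle, mesothelial and cholangiocyte markers did not overlap between the labels, and their part in the results was not tested. In bulk RNA, fewer cells of a type and less RNA per cell cannot be told apart.

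Of the 27 tested genes, 1 fell in the Nbr1KO label, the hexokinase gene Hk2, and 0 rose. Over all tested genes, 6.92% passed the same test, 4.67% higher and 2.25% lower, so the count among glycolysis and hypoxia genes was not above that of the table. Unadjusted p was under 0.05 for 7 of the 27 (25.9%), close to the 22.6% of all tested genes. Among the count tests, edgeR called Hk2 (7.27% of all tested genes were called, 5.0% higher and 2.27% lower), and DESeq2 called Hk2 and Mxi1, both lower (9.02% of all, 5.74% higher and 3.28% lower). With the replicate number as a block limma called 0 of the 27, where it called 4.52% of all tested genes (3.31% higher and 1.2% lower). Without WT library 1 it called 7, with Pfkfb3 and Slc16a3 higher and Hk2, Mxi1, Pfkm, Slc2a1 and Tpi1 lower, where it called 21.1% of all (12.1% higher and 9.02% lower). The log2 changes ran from -1.00 to 1.42, 21 of them negative and 6 positive, with a median of -0.19 beside -0.01 over all tested genes. With no filter, the median over the 29 genes was also -0.19. For 12 of the 27 genes (44.4%) the 3 values of one label lay apart from the 3 of the other, 8 lower and 4 higher in the Nbr1KO label, where 30.1% of all tested genes did so (13.6% lower and 16.5% higher).

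**Figure D1:**
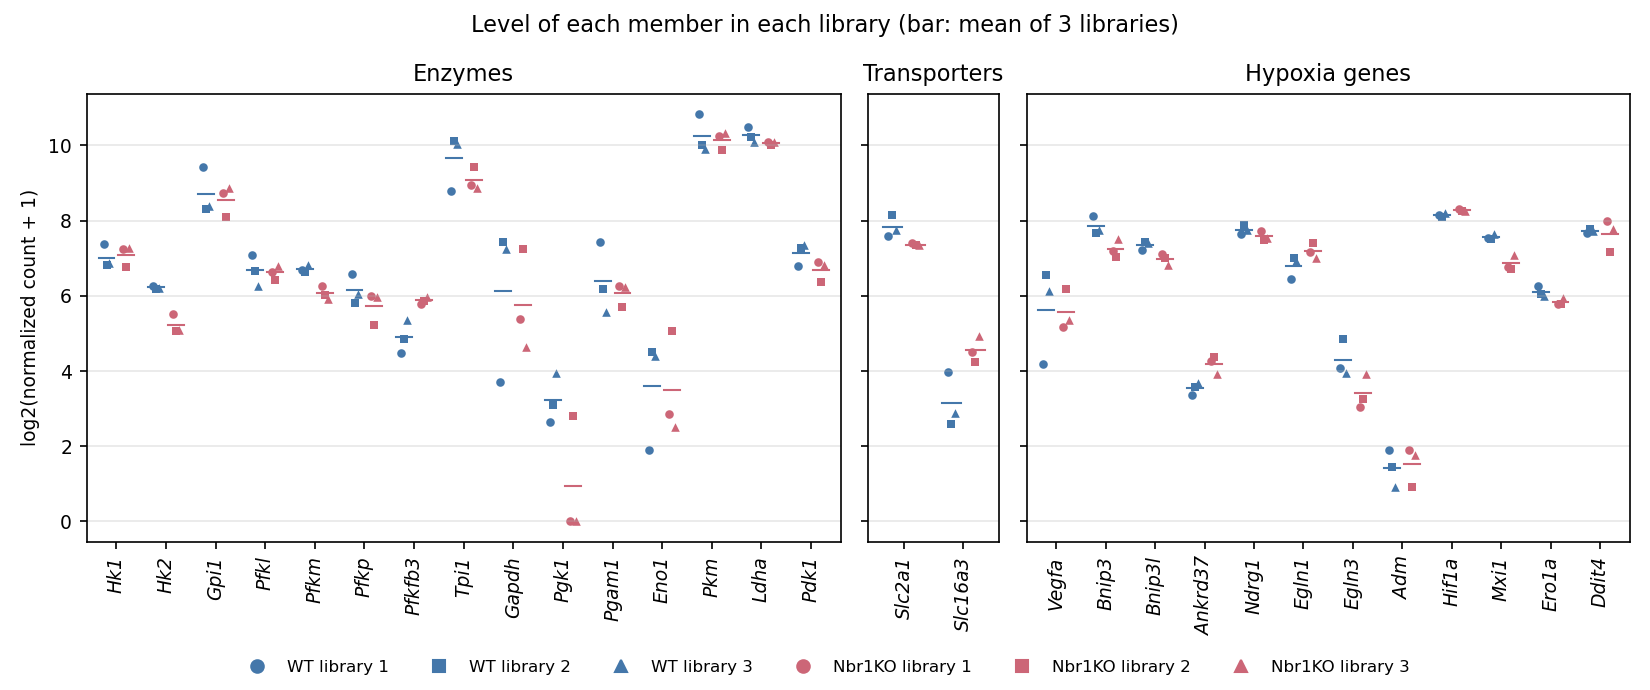
Level of each of the 29 genes in each library, as log2(normalized count + 1) on the vertical axis, with blue for the WT label, red for the Nbr1KO label, a marker shape for each library number and a bar at the mean of 3 libraries. Hk2, Pfkm and Mxi1 show the Nbr1KO points below the WT points, while Gapdh, Eno1 and Vegfa spread widely within both labels.

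Glucose enters the cell and the pathway through a transporter and a hexokinase. Slc2a1, which encodes the glucose transporter GLUT1, stood at 193.5, 285.5 and 214.3 normalized counts in the WT label and 167.5, 161.6 and 162.6 in the Nbr1KO label. The groups did not overlap and the Nbr1KO values lay close together, but with a log2 change of -0.47 (SE 0.18) the test was not passed (limma adjusted p = 0.18). Without WT library 1 it was -0.59 and passed (limma adjusted p = 0.0386). Hk2 encodes the inducible hexokinase that binds mitochondria and traps glucose as its phosphate. It had 76.0, 72.2 and 73.5 normalized counts in the WT label and 44.4, 32.7 and 33.2 in the Nbr1KO label, from 224 and 115 reads over the groups. All 3 Nbr1KO libraries were below all 3 WT libraries, and the WT values were nearly equal although they come from both library sets. The mean fell 2.01-fold, from 73.9 ± 1.9 to 36.7 ± 6.6 (SD, n = 3 each; log2 change -1.00, SE 0.20, limma adjusted p = 0.0313). The log2 change was -0.97 within set A and -1.13 within set B. The call was lost without WT library 2 or 3 or Nbr1KO library 1, 2 or 3 (limma adjusted p from 0.0807 to 0.145, log2 change from -1.14 to -0.93) and held without WT library 1.

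Hk1, the hexokinase gene expressed in most tissues, had 164.1, 111.7 and 115.3 normalized counts in the WT label and 152.1, 107.4 and 154.3 in the Nbr1KO label. The labels overlapped throughout, with a log2 change of 0.08 and a 95% interval from -0.46 to 0.63. Hk2 therefore made up 31.7%, 39.3% and 38.9% of the summed Hk1 and Hk2 count in the WT label and 22.6%, 23.3% and 17.7% in the Nbr1KO label. These shares did not overlap (36.6 ± 4.3% against 21.2 ± 3.0%, SD, n = 3 each).

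The bases before the start of Hk2 are shown because it is the member that fell, with the core of the hypoxia response element in capitals. The core was searched as ACGTG or GCGTG on both strands (CACGT or CACGC as read here), and overlapping matches merge into a single run. The sequence is the 250 bases before the most upstream RefSeq start, chr6:82774455-82774704, minus strand of GRCm38.p6, printed 5' to 3' along the gene, and holds 2 matches.
Hk2: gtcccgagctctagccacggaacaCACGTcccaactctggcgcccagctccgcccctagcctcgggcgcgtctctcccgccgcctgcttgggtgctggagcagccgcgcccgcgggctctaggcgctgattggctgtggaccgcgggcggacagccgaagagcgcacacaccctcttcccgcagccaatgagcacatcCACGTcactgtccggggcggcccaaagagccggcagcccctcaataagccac

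**Figure D2:**
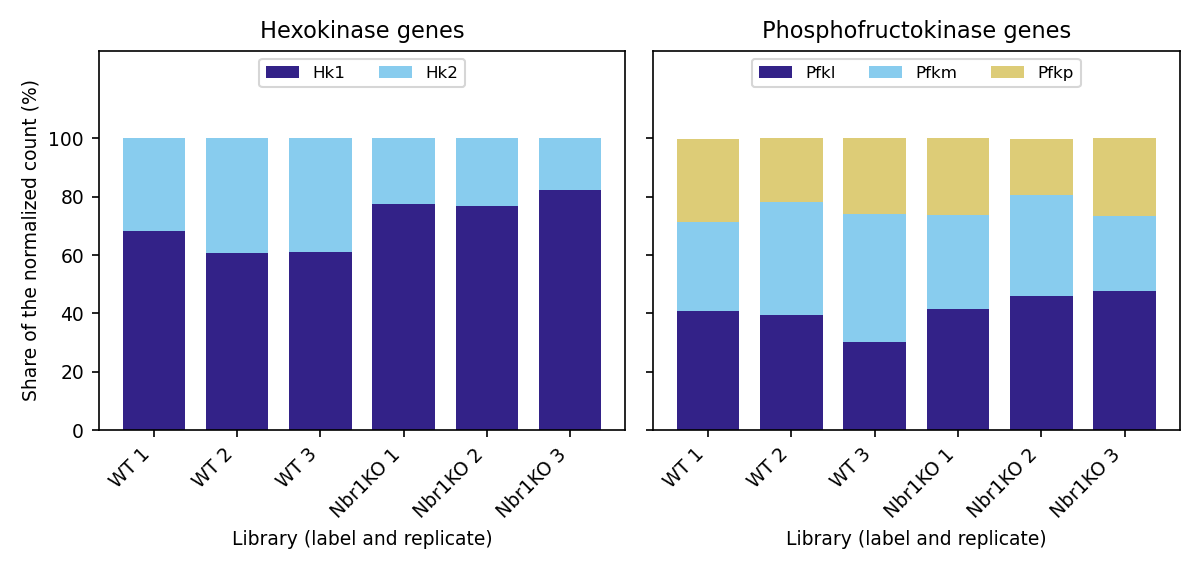
Share of the summed normalized count (vertical axis, %) taken by each hexokinase gene (left) and each phosphofructokinase gene (right) in each library. The Hk2 share is 31.7% or more in every WT library and 23.3% or less in every Nbr1KO library, while of the phosphofructokinase shares those of Pfkm and Pfkp overlap between the labels.

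The enzymes of the upper pathway follow. Gpi1, which encodes the isomerase that makes fructose 6-phosphate, had 681.8, 315.8 and 333.2 normalized counts in the WT label and 421.8, 272.4 and 462.8 in the Nbr1KO label. Its values split by library set, 421.8 to 681.8 in set A and 272.4 to 333.2 in set B, and not by label (log2 change -0.14, 95% interval -0.97 to 0.68). The 3 phosphofructokinase genes encode subunits of the committed step. Pfkm, the muscle-type subunit gene, had 101.4, 99.1 and 111.7 normalized counts in the WT label and 76.0, 64.5 and 59.3 in the Nbr1KO label. All Nbr1KO values were below all WT values, with a log2 change of -0.64 (SE 0.17) that did not pass (limma adjusted p = 0.0809). It passed without WT library 1 (limma adjusted p = 0.0429), and the log2 change was -0.59 in set A and -0.70 in set B. Pfkl, the liver-type gene, overlapped between the labels (log2 change -0.05, interval -0.63 to 0.53), as did the platelet-type gene Pfkp (-0.43, interval -1.15 to 0.30). Pfkm made up 30.6% to 44.1% of the phosphofructokinase count in the WT label and 25.6% to 34.7% in the Nbr1KO label, which overlapped. The Pfkl share was 30.1% to 40.7% against 41.6% to 47.7%, just apart.

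Pfkfb3 went the other way. Its product makes fructose 2,6-bisphosphate, the strongest activator of phosphofructokinase. Pfkfb3 had 21.3, 27.7 and 39.9 normalized counts in the WT label and 54.3, 57.6 and 61.7 in the Nbr1KO label, or 29.7 ± 9.5 against 57.9 ± 3.7 (SD, n = 3 each). The groups did not overlap, and the log2 change was 0.98 (SE 0.27, 95% interval 0.35 to 1.62), but the test was not passed (limma adjusted p = 0.081). It passed without WT library 1, with a log2 change of 0.78 (limma adjusted p = 0.0488). The 250 bases before its most upstream start, chr2:11553930-11554179, minus strand of GRCm38.p6, are shown because its values lay opposite to those of Hk2, and they hold 1 match to the core, in capitals.
Pfkfb3: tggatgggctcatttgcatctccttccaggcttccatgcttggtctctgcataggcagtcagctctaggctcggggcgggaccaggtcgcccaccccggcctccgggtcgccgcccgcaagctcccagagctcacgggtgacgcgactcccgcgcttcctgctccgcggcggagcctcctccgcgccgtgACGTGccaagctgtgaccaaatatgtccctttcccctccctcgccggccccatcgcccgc

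The enzymes of the lower pathway, from triose phosphate to lactate, gave 0 calls in either direction in limma, edgeR and DESeq2, and 0 of them had an unadjusted p under 0.05, where 22.6% of all tested genes did and 6.92% were called by limma. Pkm, which encodes pyruvate kinase, and Ldha, which encodes the lactate dehydrogenase subunit favouring lactate, had the highest counts of the 29 genes. Pkm had 1833.1, 1030.4 and 964.2 normalized counts in the WT label and 1222.0, 936.8 and 1276.8 in the Nbr1KO label. Its log2 change was -0.11 (95% interval -0.75 to 0.53), and the 3 libraries of set A were above the 3 of set B. Ldha was at 1436.9, 1199.2 and 1093.2 against 1098.9, 1040.8 and 1098.8, the WT values reaching higher but the labels overlapping (log2 change -0.19, interval -0.52 to 0.13). Its interval excludes a fall to 0.5 of the WT level, a log2 change of -1. Tpi1, which encodes triose phosphate isomerase, had 442.9, 1114.4 and 1059.6 normalized counts in the WT label and 488.8, 686.7 and 465.1 in the Nbr1KO label. WT library 1 was the lowest of all 6, and without it the log2 change moved from -0.58 to -1.01 and passed (limma adjusted p = 0.00974). Within set A the log2 change of Tpi1 was 0.11 and within set B it was -0.66. Pgam1, which encodes phosphoglycerate mutase, was at 46.3 to 170.8 in the WT label and 50.7 to 75.1 in the Nbr1KO label. Pdk1, which encodes a kinase that holds pyruvate back from oxidation in mitochondria, had 110.7, 154.5 and 163.4 against 119.5, 81.6 and 111.5 (log2 change -0.45, interval -1.00 to 0.10).

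Several lower-pathway genes were measured at levels far below that of Pkm. Gapdh, the glyceraldehyde phosphate dehydrogenase gene often used as a reference gene, had only 12.0, 173.0 and 151.6 normalized counts in the WT label and 40.7, 150.4 and 23.7 in the Nbr1KO label. Set A lay between 12.0 and 40.7 and set B between 150.4 and 173.0, so the library sets were apart and the labels were not (log2 change -0.38, interval -3.03 to 2.27). Eno1, which encodes enolase, showed the same split, with 2.7, 6.3 and 4.7 in set A and 21.8, 20.0 and 32.7 in set B. Pgk1, which encodes phosphoglycerate kinase, had 5.3, 7.6 and 14.5 in the WT label, from 29 reads, and 0, 6.0 and 0 in the Nbr1KO label, from 7 reads. A count of 0 allows up to 3 reads, or 2.7 normalized counts in Nbr1KO library 1 and 3.6 in library 3, and this covers counting error only. In GENCODE M21, 125 other genes, 123 of them pseudogenes, hold at least 75 bases matching the last 300 bases of a Gapdh transcript at 95% identity or more. Such copies numbered 4 for Bnip3, 2 for Tpi1 and 1 each for Eno1 and Ldha, and were 0 for the other 25 of the 30 genes. The sources used here do not say how the authors counted reads that match several places, so the levels of these 5 genes are uncertain, and the part of the copies in them was not tested. Pgk1, with 0 such copies, was low as well, and the reason was not tested.

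**Figure D3:**
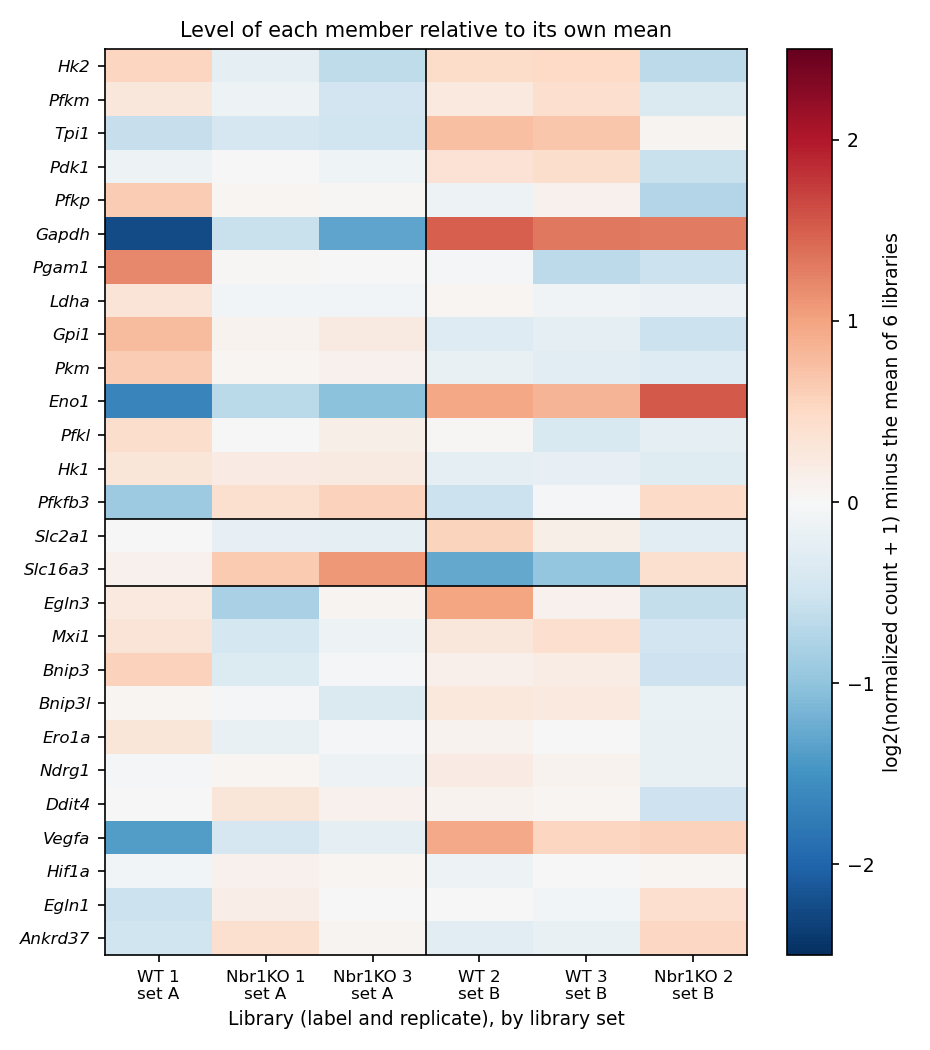
Colour gives each tested gene's log2(normalized count + 1) in a library minus its mean over the 6 libraries (red above, blue below), with libraries ordered by set along the horizontal axis and genes in rows by class. Gapdh, Eno1, Vegfa and Tpi1 are low across set A and high across set B, while Hk2 is low in the 3 Nbr1KO libraries of either set.

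The sets separated 8 of the 27 tested genes completely, against 40.0% of all tested genes, and 7 of these 8 were enzymes. Tpi1, Gapdh, Eno1 and Vegfa were higher throughout set B, and Hk1, Gpi1, Pgam1 and Pkm throughout set A. The sets were drawn from all genes of these libraries, so this is a description with no test. With a term for the set in the model, 9 of the 27 genes passed, 3 higher and 6 lower, where 26.5% of all tested genes did (14.3% higher and 12.2% lower). These were Pfkfb3, Slc16a3 and Egln1 (higher) and Hk2, Mxi1, Bnip3, Pfkm, Pfkp and Gpi1 (lower). A term for sets drawn from these libraries' own deviations removes the spread that defined them, so p-values from this fit are too small and the count is a description.

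Lactate leaves glycolytic cells through the transporter MCT4, the product of Slc16a3. Slc16a3 had 14.7, 5.0 and 6.4 normalized counts in the WT label and 21.7, 18.0 and 29.7 in the Nbr1KO label, from 24 and 70 reads. The groups did not overlap, although WT library 1 came close, and the mean was 2.66-fold higher in the Nbr1KO label (8.7 ± 5.2 against 23.1 ± 5.9, SD, n = 3 each). At 1.42 (SE 0.43) its log2 change was the highest of the 27 genes, and the test was not passed (limma adjusted p = 0.109). Without WT library 1 it was 1.83 and passed (limma adjusted p = 0.0108). Of the 2 transporters, 0 passed in limma, edgeR or DESeq2, and both had an unadjusted p under 0.05, as had 22.6% of all tested genes. The 250 bases before the start of Slc16a3, chr11:120948817-120949066, plus strand of GRCm38.p6, are shown for this highest change and hold 2 matches, both near the start.
Slc16a3: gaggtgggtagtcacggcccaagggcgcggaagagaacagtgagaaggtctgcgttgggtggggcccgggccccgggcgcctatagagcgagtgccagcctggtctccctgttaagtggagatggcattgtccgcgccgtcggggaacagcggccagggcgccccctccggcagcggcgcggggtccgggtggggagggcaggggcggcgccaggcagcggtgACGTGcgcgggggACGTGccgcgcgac

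Among the 12 hypoxia genes, 11 were tested and 0 passed limma or edgeR, while 1 (Mxi1) passed DESeq2. An unadjusted p under 0.05 was found for 2 of the 11 (18.2%), beside 22.6% of all tested genes. Their median log2 change was -0.17. Mxi1, whose product opposes MYC, had 185.4, 180.6 and 198.8 normalized counts in the WT label and 108.6, 104.9 and 135.3 in the Nbr1KO label. The groups lay well apart, at 188.3 ± 9.5 against 116.3 ± 16.6 (SD, n = 3 each), with a log2 change of -0.70 (SE 0.16, limma adjusted p = 0.051, DESeq2 adjusted p = 0.0224). It passed without WT library 1 (limma adjusted p = 0.0259), and the log2 change was -0.61 in set A and -0.85 in set B.

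The BNIP3 proteins are mitophagy receptors that tether mitochondria to the autophagosome, as NBR1 and p62 do for other cargo. Bnip3 had 278.8, 202.4 and 212.5 normalized counts in the WT label and 145.7, 128.9 and 182.7 in the Nbr1KO label. Its groups did not overlap, with a log2 change of -0.60 (SE 0.20, 95% interval -1.08 to -0.12) that did not pass (limma adjusted p = 0.139). Bnip3l, which encodes the related receptor NIX, was at 148.1, 172.2 and 168.9 against 138.5, 128.1 and 111.5, again without overlap (log2 change -0.37, interval -0.75 to 0.01). The 250 bases before the start of Bnip3, chr7:138909507-138909756, minus strand of GRCm38.p6, are shown as those of a hypoxia target with lower values in every Nbr1KO library, and hold 5 matches in 4 runs.
Bnip3: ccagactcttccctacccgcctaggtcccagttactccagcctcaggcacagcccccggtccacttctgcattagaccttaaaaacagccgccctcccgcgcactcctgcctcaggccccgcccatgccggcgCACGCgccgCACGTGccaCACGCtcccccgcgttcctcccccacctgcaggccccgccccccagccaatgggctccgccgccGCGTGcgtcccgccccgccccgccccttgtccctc

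The oxygen sensor genes come next. Hif1a had 282.8, 271.3 and 293.3 normalized counts in the WT label and 317.7, 306.0 and 305.0 in the Nbr1KO label. The groups were just apart, and the log2 change of 0.13 had an interval from -0.15 to 0.42 (limma adjusted p = 0.593). HIF-1 alpha is regulated mainly as a protein, which these counts do not measure. Egln1, the main prolyl hydroxylase gene, was at 86.7, 127.7 and 120.8 against 142.1, 169.3 and 127.0 (log2 change 0.39, interval -0.11 to 0.89), with WT library 2 just above Nbr1KO library 3. Egln3, the most hypoxia-inducible of the family, lay lower, at 16.0, 27.7 and 14.5 against 7.2, 8.6 and 14.2 (log2 change -0.88, interval -1.79 to 0.02), from 61 and 30 reads.

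The other targets did not pass either. Ankrd37, an ankyrin repeat gene, had 9.3, 10.9 and 11.8 normalized counts in the WT label and 18.1, 19.8 and 14.2 in the Nbr1KO label, without overlap (limma adjusted p = 0.221). Ero1a, which encodes an oxidase of disulfide bond formation, was at 62.6 to 76.0 against 54.1 to 60.5, also without overlap (log2 change -0.27, interval -0.69 to 0.16). Vegfa, the angiogenic growth factor gene, was at 17.3, 92.4 and 69.0 against 35.3, 71.3 and 40.3. Its 3 lowest values were those of set A, and its log2 change of -0.05 had an interval from -1.53 to 1.44. Ndrg1, a stress-response gene, ranged from 198.8 to 233.5 in the WT label and 177.9 to 210.9 in the Nbr1KO label, and Ddit4, which encodes the mTORC1 inhibitor REDD1, from 204.1 to 216.7 and 142.7 to 252.6. Adm, the adrenomedullin gene, had 5 and 6 reads over the groups, too few to show a difference at this depth.

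**Figure D4:**
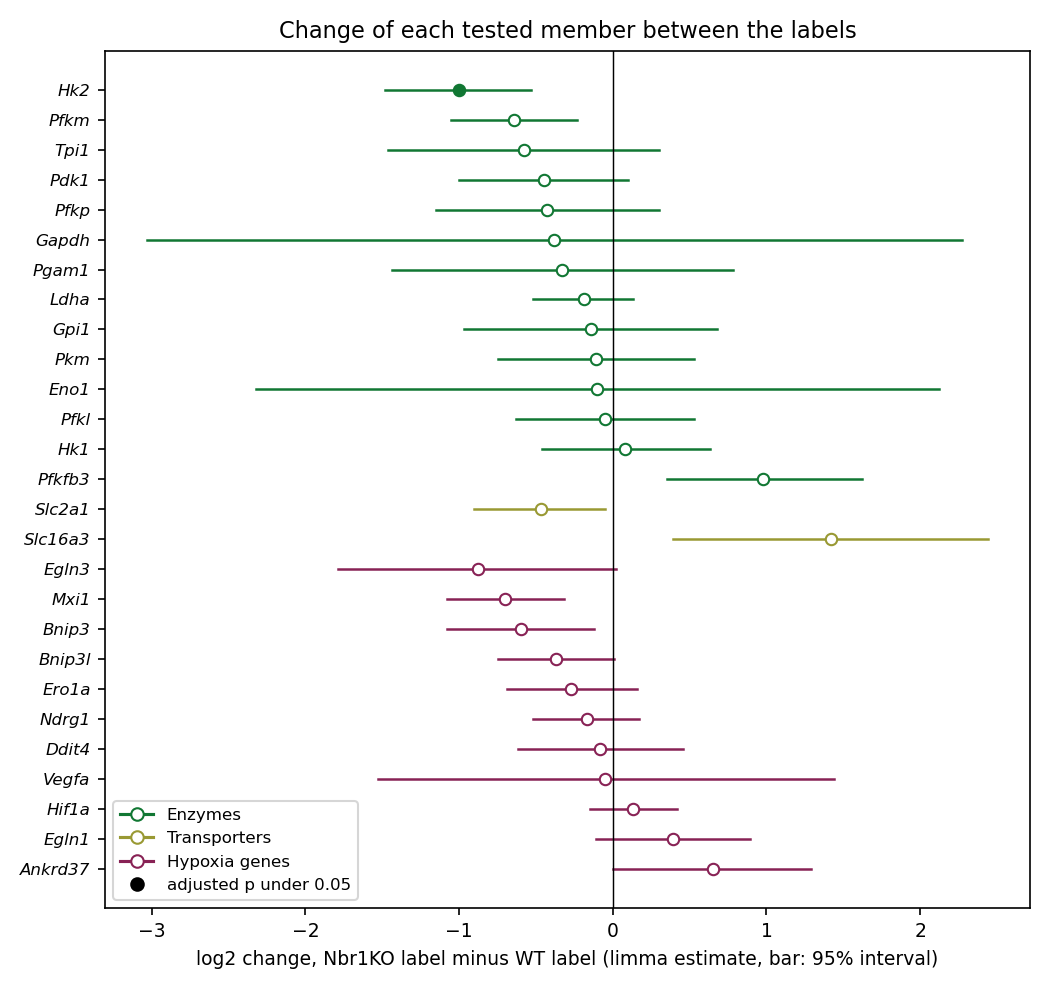
The log2 change of each of the 27 tested genes (horizontal axis, Nbr1KO label minus WT label, limma estimate with its 95% interval), grouped by class and ordered by size. Only Hk2, the filled point at -1.00, passed the adjusted test, and the intervals of Gapdh and Eno1 span more than 2 log2 units to either side.

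Enzymes and hypoxia genes were set against each other. The median log2 change was -0.26 over the 14 tested enzymes (12 negative, 2 positive) and -0.17 over the 11 tested hypoxia genes (8 negative, 3 positive), a difference of -0.09. With no filter, over 15 and 12 genes, the medians were -0.33 and -0.12. The mean log2(normalized count + 1) of the tested enzymes was 6.99, 7.22 and 7.19 in the WT label and 6.92, 6.94 and 6.81 in the Nbr1KO label. Every Nbr1KO library was below every WT library, though Nbr1KO library 2 (6.94) and WT library 1 (6.99) were close. The same mean over all tested genes was not computed. For the tested hypoxia genes the mean was 6.43, 6.76 and 6.65 against 6.41, 6.43 and 6.47, which overlapped. The enzyme mean minus the hypoxia mean was 0.56, 0.46 and 0.54 in the WT label and 0.51, 0.52 and 0.34 in the Nbr1KO label, which overlapped too. The direction of the difference in medians turned without WT library 1 (0.08) and without Nbr1KO library 1 (0.03) or 2 (0.07). Groups without overlap were found for 3 of 14 enzymes (21.4%), both transporters and 7 of 11 hypoxia genes (63.6%), beside 30.1% of all tested genes, and the difference between the classes was not tested.

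The hypoxia response core occurred in the 250 bases before the most upstream start of 21 of the 28 genes with a RefSeq entry, against 59.1% of 8414 tested genes and 38.6% of 27025 genes with one. It was there for 11 of 16 enzymes, both transporters and 8 of 10 hypoxia genes. Hk1, Gpi1, Aldoa, Tpi1, Pkm, Vegfa and Mxi1 held no match in this window, which says nothing of elements elsewhere. Ldha is shown as the gene with the most matches in the window among those printed, jointly with Bnip3, and its labels overlapped. Its 5 matches, in 3 runs, lie at chr7:46845554-46845803, plus strand of GRCm38.p6.
Ldha: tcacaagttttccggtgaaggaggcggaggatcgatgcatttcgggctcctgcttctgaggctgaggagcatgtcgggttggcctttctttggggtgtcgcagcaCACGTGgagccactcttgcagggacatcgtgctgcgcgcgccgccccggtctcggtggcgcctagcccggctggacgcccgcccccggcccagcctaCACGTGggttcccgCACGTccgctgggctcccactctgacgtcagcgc

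Of 57 other genes of glucose, pyruvate, pentose phosphate and glycogen metabolism, 39 were tested, 1 fell and 0 rose (2.56%, beside 6.92% of all tested genes), with a median log2 change of -0.05. The gene that fell was Aldoc, a brain-type aldolase gene, at 174.8, 89.9 and 99.0 normalized counts in the WT label and 29.9, 13.8 and 28.5 in the Nbr1KO label. The mean fell 5.04-fold (121.2 ± 46.6 to 24.0 ± 8.9, SD, n = 3 each; log2 change -2.30, SE 0.39, limma adjusted p = 0.0173). Its call was lost without WT library 3 or Nbr1KO library 1 or 3 (limma adjusted p up to 0.0654). Of 16 HIF subunits and oxygen-sensing genes, 15 were tested and 0 passed limma, edgeR or DESeq2, with 2 at an unadjusted p under 0.05 (13.3%, beside 22.6% of all tested genes) and a median log2 change of -0.20. Of 48 other genes known to be induced by hypoxia, 33 were tested, 2 rose and 0 fell (6.06%, no more than the 6.92% of all tested genes), with a median of -0.02. Lox, which encodes the collagen-crosslinking lysyl oxidase, rose 2.21-fold, from 1227.4, 830.6 and 806.2 to 2205.1, 1797.1 and 2340.0 (log2 change 1.16, SE 0.20, limma adjusted p = 0.0187). Its call was lost without WT library 2 or 3 or Nbr1KO library 1 or 3 (limma adjusted p up to 0.111). Rora, a nuclear receptor gene, rose from 4.0, 8.4 and 6.4 to 16.3, 24.1 and 22.5 (log2 change 1.63, SE 0.35, limma adjusted p = 0.0404). Rora stayed past the threshold without WT library 1 and lost it when any other library was left out (limma adjusted p up to 0.159). Some genes of this list had a row but were too low to be tested. Car9 had 2.7, 49.5 and 69.0 normalized counts in the WT label and 1.8, 5.2 and 1.2 in the Nbr1KO label, which overlapped. Without overlap, Pdgfb (17 against 1 reads) and Ppp1r3c (27 against 13) were lower and Stc1 (5 against 20) and Kdr (13 against 23) higher. Car12, Angptl4, Ppp1r3b, Selenbp1 and Flt1 overlapped. Of the carbohydrate genes too low to be tested, Ldhb (31 against 8 reads) and Slc2a3 (18 against 3) were lower without overlap, and Pygm overlapped. The share without overlap among all genes too low to be tested was not computed.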

How the data were processed

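RNA was measured in 6 libraries of cultured mouse hepatic stellate cells, 3 per label, with the QuantSeq 3' forward kit and single-end reads of 75 nucleotides, per the labels' protocols. Per the file headers and values, the authors deposited 1 normalized count signal per gene symbol and library. DESeq2 (no version) and the build GRCm39 come from the submitters' processing notes. The labels' protocols mention optional molecular identifiers. Whether counting used them or strand, and the aligner and annotation, are not given in the sources used here. In every library 100% of values were whole multiples of 1 read (tolerance 0.01), so reads were recovered. Libraries were compared before averaging by chi-square per degree of freedom between read counts. It was 1.478 for WT libraries 2 and 3, 1.526 for Nbr1KO libraries 1 and 3 and 7.368 to 23.648 for all other pairs. No 2 were counted as 1, so n = 3 may overstate the independent samples of each label.

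The main test was limma 3.58.1 (R 4.3.3, variance trend, two-sided) on log2(value + 1) in all 6 libraries with the label as the only term. This scale understates the change of low genes. Folds are ratios of mean normalized counts. In limma and the count tests (edgeR 4.0.16 and DESeq2 1.42.0 on recovered reads) p-values were adjusted over all tested genes. The other alternatives were pseudocounts of 0.5 and 5, all genes unfiltered, only genes with a mean of 50 or more, TMM or quantile scaling, no variance trend, a replicate block, the library sets and each library left out. The limma and edgeR fits were also run on simulated counts that held no library sets, so that run does not check them under the sets seen here. Every one of the 29 genes with a row is described, and from each further list the genes past the threshold. Members, lists and library sets were chosen with earlier results of these data known. Promoter sequences come from RefSeq (GRCm38.p6), matched by symbol, and transcript ends from GENCODE M21, searched with BLAST 2.17.0. These builds differ from that of the counts and no coordinate was converted.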

Additional observations from a re-analysis of the deposited data

How the results depend on the processing

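Of all tested genes, 729 passed in the main test, 380 with a mean of at least 50, 476 with the replicate block and 2791 with the library set term (whose p-values are too small, since the sets come from these data), and 200 to 2228 with 1 library left out, the highest without WT library 1. Of the glycolysis and hypoxia genes, 2 (Hk2 and Mxi1) passed with a pseudocount of 5 (7.46% of all tested genes), TMM factors (7.08%) or DESeq2 (9.02%). With the library set term 9 passed (26.5% of all), and 0 with a mean of at least 50 (5.52%) or the replicate block (4.52%). With 1 library left out, 7 passed without WT library 1 (21.1% of all) and 0 without any other (1.9% to 3.21%). Hk2 had a limma adjusted p of 0.0503 with a mean of at least 50 and 0.0722 with the replicate block. The difference of medians, enzymes minus hypoxia genes (-0.09), was -0.20 with no filter, -0.18 with a mean of at least 50, -0.22 with quantile normalization, -0.37 within set A, 0.17 within set B and -0.17 to 0.08 with 1 library left out. Of the 39 tested other carbohydrate genes, 9 passed with the set term (26.5% of all tested genes), 3 with DESeq2 (9.02%) and 0 to 7 with 1 library left out. Of the 15 oxygen-sensing genes, 4 passed with the set term and 0 to 4 with 1 library left out. Of the 33 other hypoxia-induced genes, 10 passed with the set term, 1 with a mean of at least 50 (5.52% of all) or the replicate block (4.52%), and 0 to 7 with 1 library left out. With no filter 3 of that list passed, beside 6.23% of all genes. The highest count of each list with 1 library left out was without WT library 1, where 21.1% of all tested genes passed. The cause was not tested.

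Some genes that did not pass changed sign. With the set term the log2 change was -0.09 for Hk1, 0.60 for Gapdh, 0.72 for Eno1 and 0.46 for Vegfa. Within set A it was -0.10 for Hk1, 0.11 for Tpi1, 1.30 for Gapdh, 0.82 for Eno1, 0.06 for Pdk1, 1.08 for Vegfa and 0.21 for Ddit4, and within set B -0.08 for Hk1 and 0.62 for Eno1. With 1 library left out it ran from -0.02 to 0.26 for Hk1, -0.34 to 0.21 for Gpi1, -0.26 to 0.15 for Pfkl, -1.60 to 0.27 for Gapdh, -0.74 to 0.19 for Pgam1, -0.96 to 0.38 for Eno1, -0.28 to 0.19 for Pkm, -0.76 to 0.41 for Vegfa and -0.25 to 0.16 for Ddit4. Hk2 kept its direction in every alternative, as did every other tested gene of the list that is not named above in this paragraph. Same-numbered libraries of the labels deviated with r = 0.446, 0.7 and -0.624, and 2 of 6 correlated best with their own number. These deviations also define the library sets, so they cannot settle whether the numbers pair the samples. The block is therefore given as an alternative.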

Other observations

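Some genes of the further lists lay apart between the labels without passing the main test, and those given here were chosen after their values were seen. Slc16a1 encodes MCT1, the lactate transporter related to that of Slc16a3. Slc16a1 had 389.6, 629.9 and 503.0 normalized counts in the WT label and 262.5, 330.0 and 261.1 in the Nbr1KO label (log2 change -0.81, SE 0.21, limma adjusted p = 0.0704, DESeq2 adjusted p = 0.0143), so the values of the 2 lactate transporter genes lay in opposite directions. Eno3, the muscle-type enolase gene, had 64.0, 54.6 and 59.9 against 109.5, 85.1 and 132.9 (limma adjusted p = 0.0666). Pdk3, which encodes a kinase related to that of Pdk1, had 308.2, 251.1 and 260.6 against 153.9, 158.1 and 213.6 (limma adjusted p = 0.0902). Hilpda, a hypoxia-induced lipid droplet gene, had 258.8, 221.7 and 238.8 against 156.6, 116.0 and 188.7 (limma adjusted p = 0.116). Tgfb3, a growth factor gene of the same hypoxia-induced list, was higher, at 78.7, 107.5 and 109.9 against 164.8, 148.7 and 157.8 (limma adjusted p = 0.08). In that list the labels did not overlap for 12 of 33 tested genes (36.4%), 9 higher and 3 lower in the Nbr1KO label. The same held for 9 of 39 tested carbohydrate genes (23.1%), 3 higher and 6 lower, and for 3 of 15 oxygen-sensing genes (20.0%), 0 higher and 3 lower. Over all tested genes this share was 30.1%, 16.5% higher and 13.6% lower. Arnt2, which encodes a partner subunit of HIF proteins, had 50.7, 52.9 and 49.0 against 19.9, 23.2 and 35.6 (limma adjusted p = 0.0806).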
